A study of Rattus norvegicus with 10 samples.

Results

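Contralateral glands were set against glands from rats without nerve section, to ask whether cutting the nerve on 1 side goes with a different transcript profile in the gland of the other side. The members are 5 of the 10 rat lacrimal glands measured. They were chosen by title: 3 glands titled as contralateral controls form 1 side of the comparison, and the unoperated and the sham-operated gland, treated differently, make up the other. All 8740 probe sets that are not array controls were considered, and 6118 of them passed a filter on dim signals and were tested.

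The lacrimal gland makes the watery part of tears. Its acinar cells fold secretory proteins in the endoplasmic reticulum, store them in granules and release them, with salt and water, when parasympathetic fibres act on muscarinic and peptide receptors. The greater superficial petrosal nerve carries the preganglionic fibres in the parasympathetic supply of the gland of its own side. A gland on the uncut side keeps that supply, but it shares the blood, the hormones and the surgery of the animal, and both eyes share reflex control of tearing, so contralateral glands are often used as controls.

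The 3 contralateral glands were taken at 7 days, from rats whose greater superficial petrosal nerve had been cut. The sham gland was taken at 7 days after a sham operation and the unoperated gland had no operation. The other 5 glands of the series were denervated, taken at 7 days after the same nerve section, and entered the fit for the estimate of spread. Titles and descriptions conflict: the descriptions of the 3 contralateral controls place them ipsilateral to the experimental side, and the titles were followed. The labels give no strain, sex or age, and do not say which glands are from different rats; the p-values therefore measure the spread between these arrays, which may be technical. Unoperated and sham are 1 gland each, so neither treatment has a replicate of its own, and a difference between the 2 treatments counts as spread here. Of 28 listed lacrimal secretory protein genes, products that mark the labelled tissue, 14 were measured, and their mean log2 intensity was 13.44 to 14.73 in the 5 glands; levels of different probe sets are not comparable, so this is no test of the label.

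Pairs of glands were first compared over the 6118 tested probe sets, by the SD of their log2 intensity difference. Contralateral glands differed from one another by 1.00 to 1.30 (median 1.25, 3 pairs). They differed from the unoperated and sham glands by 1.09 to 1.39 (median 1.21, 6 pairs), and the unoperated and sham glands differed from each other by 1.25. A contralateral gland was thus about as far from a gland of its own kind as from a gland without section. More than 2-fold differences were seen for a median of 34.5% of probe sets between contralateral glands and 32.9% between the sides. Contralateral 1 stood nearest to denervated 1 (0.92) and to sham (1.09), with contralateral 2 and unoperated next (1.25 each). Contralateral 2 was nearest to denervated 4 (0.97), denervated 3 (0.99) and contralateral 3 (1.00).

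**Figure D1:**
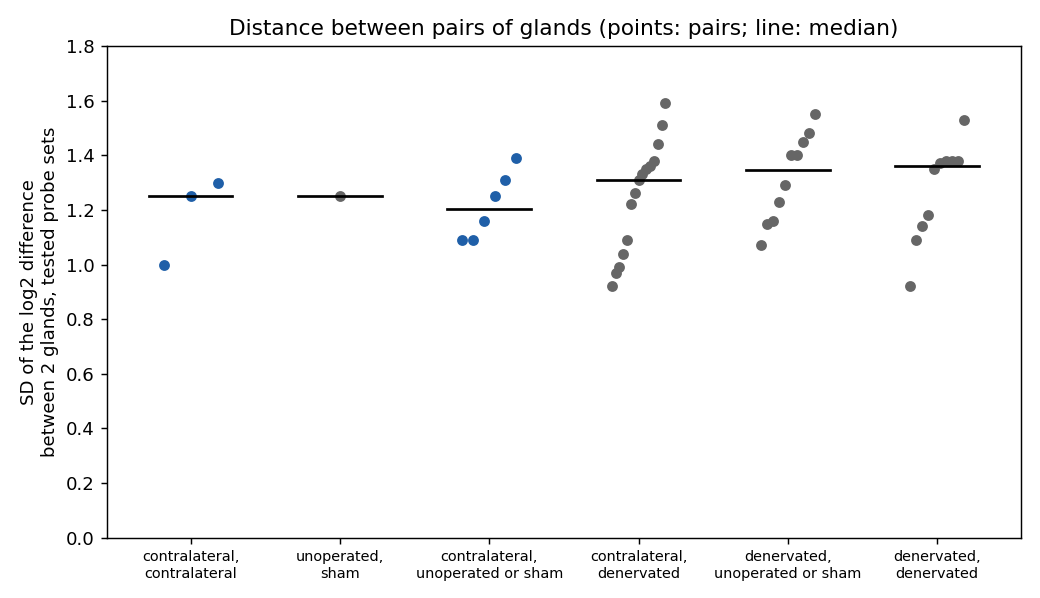
Distance between pairs of glands, as the SD of the log2 intensity difference over the tested probe sets. Each point is a pair, ordered by value within its kind, and lines are medians. The 6 pairs between the compared sides (1.09 to 1.39) cover nearly the same range as the 3 pairs of contralateral glands (1.00 to 1.30).

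The glands that stand together differ in a few very abundant secretory transcripts. Dnase1, which encodes a secreted DNA-cutting enzyme, had log2 intensities of 18.74 in contralateral 1, 18.83 in sham and 17.82 in denervated 1, but 10.23, 12.39 and 14.39 in contralateral 2, contralateral 3 and unoperated. Smr3a, which encodes a prohormone-like protein of salivary and tear glands, ran the other way, with 10.95 in contralateral 1, 10.71 in sham and 7.66 in denervated 1 against 17.47, 17.81 and 17.55. Each compared side therefore holds a Dnase1-rich, Smr3a-poor gland. The differences between the sides for these genes were small beside that, -2.82 ± 2.86 for Dnase1 and 1.28 ± 3.02 for Smr3a (log2 difference ± SE, contralateral minus unoperated and sham, as throughout). The part of this split in the other results was not tested beyond the fits that take these sets of glands as blocks. The deposited values say nothing of cell numbers: in whole glands, fewer cells of a type and less RNA per cell cannot be told apart.

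In the fit over all 10 glands, 0 of 6118 probe sets passed an adjusted p under 0.05 between contralateral glands and glands without section (0% called; limma with Benjamini-Hochberg adjustment), and the smallest adjusted p was 0.547. At an unadjusted p under 0.05 by limma there were 299 (4.89%), where 306 would fall by chance alone if probe sets were independent. Of these, 93 (1.52%) were higher and 206 (3.37%) lower in contralateral glands. The intensities of the sides did not overlap for 1348 probe sets (22%), 418 higher (6.83%) and 930 lower (15.2%). A random order without ties would put all contralateral glands above both others with a chance of 0.1, and below both with the same chance. The median standard error of a difference was 0.72 on the log2 scale, so a single transcript had to differ several-fold to stand out.

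The excess of lower values was seen outside the brightest probe sets and depended on the scaling and on single glands. Among the 2040 dimmest probe sets the median difference was -0.38 and 64.5% were lower. Among the 2039 of middle brightness it was -0.23 and 64.1% were lower, with 351 lower and 111 higher without overlap. Among the 2039 brightest it was -0.01 and 50.7% were lower. Of the 206 lower probe sets, 96 had at least 1 contralateral gland at the floor of 7.29, below which intensities were not told apart. Median intensity was 766.3, 691.0 and 672.7 in the contralateral glands, 809.6 in unoperated and 979.0 in sham, and the share of tested probe sets at the floor was 4.23%, 5.17% and 7.60% against 4.45% and 2.83%. The median over all probe sets was -0.15 as deposited, -0.01 after quantile normalization and 0.18 after median centring. The share of the unadjusted list that was lower went from 68.9% to 46.6% and 30.2%, and of the probe sets without overlap from 69.0% to 52.6% and 32.6%. Leaving out a gland moved the split as well: at an unadjusted p under 0.05 by limma, 133 were higher and 72 lower without sham (35.1% lower), and 150 higher and 140 lower without unoperated (48.3% lower). The direction of the whole set thus changed with the scaling, and that of the unadjusted list also without sham or unoperated. Differences below are set against the median over all 3621 genes, 1 probe set each, -0.14. Values given after median centring are to be read against 0.18, and after quantile normalization against -0.01, the medians over all probe sets. As deposited, 2464 probe sets (40.3%) were higher by any amount and 3654 (59.7%) lower. Denervated glands, set against the same 2 glands without section, gave 0 adjusted calls and 483 probe sets (7.89%) at an unadjusted p under 0.05 by limma.

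**Figure D2:**
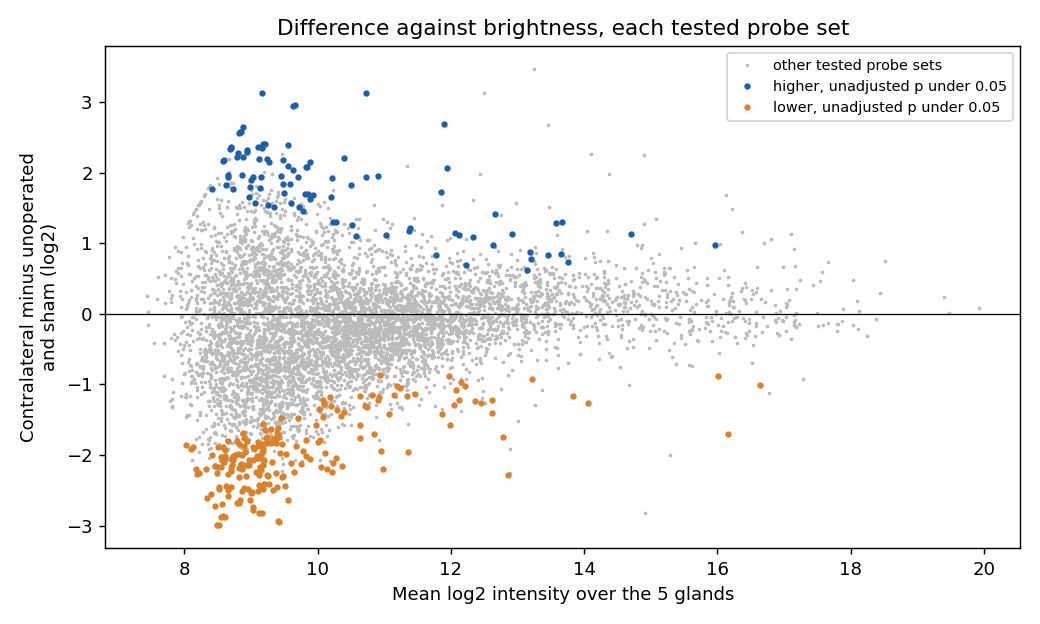
Log2 difference, contralateral minus unoperated and sham, against mean log2 intensity over the 5 glands, 1 point for each of the 6118 tested probe sets. Coloured points have an unadjusted p under 0.05 (93 higher, 206 lower); 24 of the higher and 28 of the lower ones lie among the 2039 brightest probe sets, where the spread is narrowest.

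Genes for folding and translocation in the endoplasmic reticulum were higher in contralateral glands for nearly every measured member. Of 45 listed genes 26 were measured and 25 of them were higher; their median log2 difference was 0.36. By comparison, 40.8% of all 3621 measured genes and 50.6% of the genes among the brightest probe sets were higher. Without overlap between the sides there were 9 higher and 0 lower, where 7.13% and 14.7% of all genes, and 10.1% and 8.75% of the bright ones, were so. At an unadjusted p under 0.05 by limma, 2 were higher (1.08% of all genes). No member passed after adjustment. The mean log2 intensity of the 26 genes was 14.40, 14.32 and 14.89 in the contralateral glands, above 14.04 in unoperated and 14.09 in sham. Such a separation was not particular to this list. Contralateral means were also all higher for macrophage and monocyte markers and, by less than the rounding, for oxidative phosphorylation genes. They were all lower for inflammatory cytokines and chemokines, T and natural killer cell markers and immediate early genes. A random order gives such separations too.

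The median stayed above 0 in every alternative, from 0.26 without contralateral 3 to 0.69 after median centring, and was 0.29 after quantile normalization. The medians over all probe sets after median centring and quantile normalization were 0.18 and -0.01. The list median was 0.31 without the unoperated gland, 0.47 without sham, and 0.42 with the sets of glands described above as blocks. Within those sets, contralateral 1 minus sham gave a median of 0.23, and contralateral 2 and 3 minus unoperated 0.53. The list was written with earlier results of these data known. In denervated glands minus the same unoperated and sham glands the median was -0.47; both comparisons share those 2 glands.

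Among the chaperones, Calr, the calcium-binding lectin chaperone calreticulin, had log2 intensities of 17.49, 17.09 and 18.09 in the contralateral glands, 16.07 in unoperated and 16.79 in sham. The difference was 1.13 ± 0.57, or 2.18-fold, with an adjusted p of 0.967 in limma, and 2 further probe sets gave 0.84 and 1.01. All contralateral glands lay above both others at this probe set. Its membrane-bound relative Canx, calnexin, had 13.90, 13.86 and 14.41 against 13.17 and 13.48, a difference of 0.73 ± 0.33. The other probe sets of Canx gave 0.44 to 1.41, all of them positive. Hyou1, an exchange factor and chaperone induced by low oxygen and unfolded protein, had 11.55, 11.89 and 11.60 against 10.93 and 8.53, a difference of 1.95 ± 0.63 (adjusted p = 0.967 in limma). Its low sham value carried most of that difference, which was 0.75 without sham, and another Hyou1 probe set gave -0.28 ± 0.81. Hsp90b1, the chaperone GRP94, overlapped: 14.94, 14.77 and 16.26 against 13.98 and 15.21. The same held for Hspa5, the master chaperone BiP, with 14.90, 14.89 and 16.15 against 14.28 and 15.43.

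Folding enzymes and the translocation machinery gave smaller differences in the same direction. The proline isomerase Ppib had 15.06, 15.41 and 15.92 against 14.95 and 14.67, a difference of 0.65 ± 0.37. Ddost, a subunit of the complex that adds N-linked sugars, had 12.76, 12.69 and 13.32 against 12.43 and 12.48. Sec61b, a subunit of the protein-conducting channel, had 16.12, 15.99 and 16.08 against 15.71 and 15.87, and Ssr4, of the associated TRAP complex, 15.72, 15.58 and 15.84 against 15.39 and 15.34. The cargo receptors Tmed2 and Tmed10, which shuttle between the endoplasmic reticulum and the Golgi, differed by 0.41 ± 0.45 and 0.32 ± 0.34. None of these 6 genes overlapped between the sides. The disulfide isomerases Pdia3, Pdia4 and Pdia6 differed by 0.65, 0.68 and 0.75, with contralateral 1 within or near the range of the glands without section and contralateral 3 highest. Ddit3, a transcription factor of prolonged stress in this organelle, was dim and scattered, 9.70, 7.29 and 9.15 against 9.82 and 7.29. Rpn1 alone was not higher, with a difference of 0.00 ± 0.30. These members were singled out after their values were seen.

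**Figure D3:**
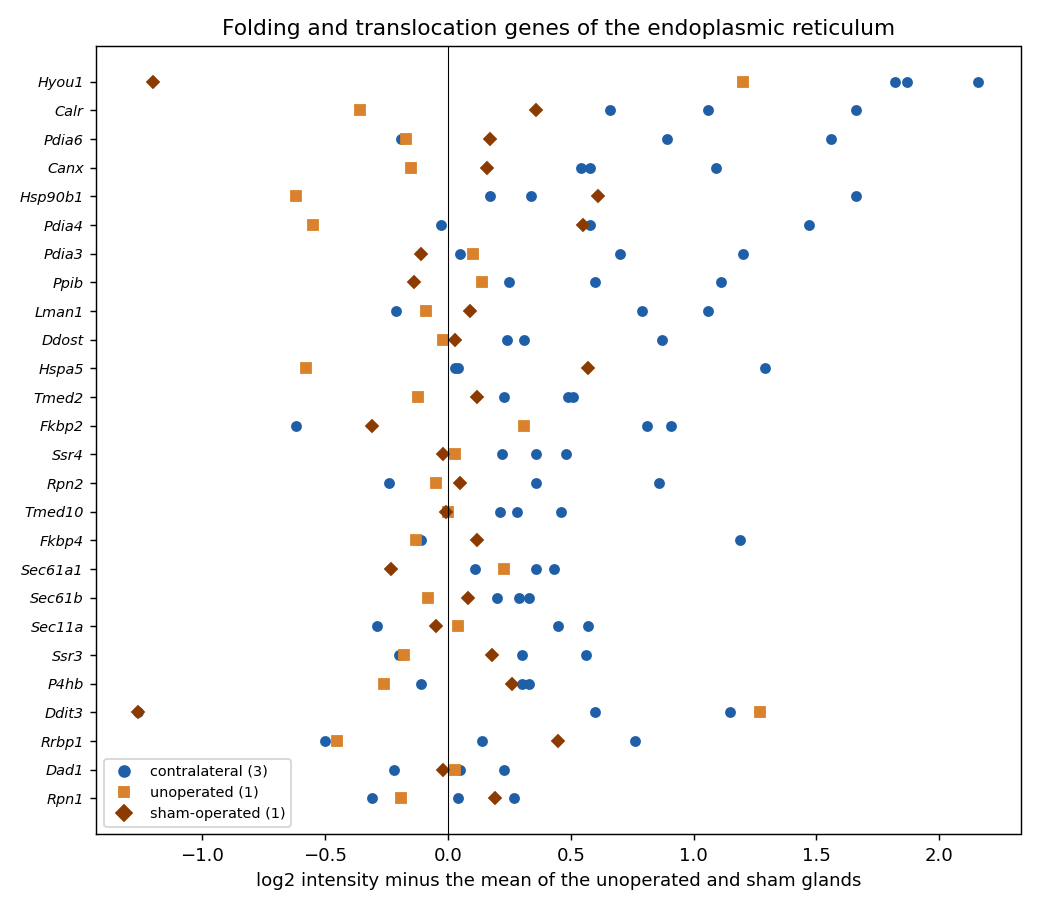
Log2 intensity of each of the 26 measured folding and translocation genes in the 5 glands, minus the mean of the unoperated and sham glands, ordered by the difference. Circles are contralateral glands. For 9 genes all 3 circles lie to the right of both other glands, and contralateral 3 is often the highest.

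Some chaperone genes of this compartment carry a promoter element known as the endoplasmic reticulum stress element. Transcription factors of the unfolded protein response bind to it. Its consensus, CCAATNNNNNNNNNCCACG, was searched on both strands in RefSeq promoters of build GRCr8, from 250 bases before to 50 after the annotated start. Of the 26 measured members 23 matched an entry, and 4 of them held the element: Canx, Calr, Hsp90b1 and Hspa5. Of all 33469 promoters of 300 bases, 22 (0.0657%) held it. The shorter CCAAT, which is part of the element, was found for 19 of the 23 members and in 37.5% of all promoters. A match is a description of these letters, not of binding or of transcript levels in these glands. Hyou1, the member with the smallest p, had a pair of promoter entries, and neither held it. The 4 stretches with the element are shown because these members are the ones that held it, 5′ to 3′ on the strand of the gene, upstream of the start, with the element in capitals. CGTGG at the left end marks an element on the opposite strand. They lie at chr10:35158029-35158107 (minus strand), chr19:40213117-40213193 (plus), chr7:23012307-23012509 (minus) and chr3:38452933-38453015 (plus).
Canx: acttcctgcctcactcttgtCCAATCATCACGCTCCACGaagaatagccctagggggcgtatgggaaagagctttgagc
Calr: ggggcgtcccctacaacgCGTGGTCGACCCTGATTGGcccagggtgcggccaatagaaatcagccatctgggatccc
Hsp90b1: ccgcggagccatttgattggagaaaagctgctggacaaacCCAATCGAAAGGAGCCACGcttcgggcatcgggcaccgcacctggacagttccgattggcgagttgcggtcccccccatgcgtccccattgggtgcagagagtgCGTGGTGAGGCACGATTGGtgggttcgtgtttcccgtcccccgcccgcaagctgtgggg
Hspa5: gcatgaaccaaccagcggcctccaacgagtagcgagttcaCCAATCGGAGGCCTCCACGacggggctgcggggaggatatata

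Genes of exocytosis and vesicle traffic, downstream of folding, were higher for 37 of 64 measured, where 40.8% of all genes were, with a median of 0.10 that was -0.03 without sham. Without overlap 11 were higher and 10 lower, against 7.13% and 14.7% of all genes. At an unadjusted p under 0.05 by limma 1 was higher and 1 lower, against 1.08% and 2.87% of all genes. Rab3d, the GTPase of mature secretory granules, was nearly equal, with 12.90, 12.85 and 12.92 in the contralateral glands against 12.86 and 12.85. Its difference of 0.04 ± 0.39 became -0.04 after quantile normalization. Rab12, a GTPase of endosome traffic, was at the floor in contralateral 2 and 3 and 8.22 in contralateral 1, against 9.23 in unoperated and 10.27 in sham. All 5 denervated glands were higher still, from 10.50 to 10.98. Rab11a, of recycling endosomes, differed by -0.97 ± 0.40 and its other probe sets by -0.25 and -1.02. The related Rab10 differed by 1.28 ± 0.51 at 1 probe set and -0.26 at another, and the syntaxin Stx1a by -1.56 ± 0.76.

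Secretory products themselves varied more within each side than between the sides. Of 14 measured lacrimal secretory protein genes 10 were higher, with a median of 0.39 that became -0.34 without the sham gland. The gland means were 13.73, 14.73 and 14.70 in contralateral glands, 14.54 in unoperated and 13.44 in sham. Secretoglobins and androgen-regulated secretory genes had means of 11.93, 14.23 and 14.15 against 13.88 and 12.23, so contralateral 1 and sham were the low glands. Their median, 0.29, became -0.50 without sham. Lcn2, a bacterial iron-siderophore binding lipocalin, was at the floor in sham, 15.04 in unoperated, and 12.89, 15.15 and 15.86 in the contralateral glands. Its difference of 3.47 ± 1.69 became -0.40 without sham. Lgals3bp, a secreted galectin-binding glycoprotein, had 9.91, 8.57 and 9.33 against 11.09 and 11.84, a difference of -2.20 ± 0.59 (adjusted p = 0.967 in limma), and -0.95 ± 0.62 at its other probe set. The cysteine protease inhibitors Cyss and Cst3 differed by -1.08 ± 0.52 and 0.73 ± 0.48. The prolactin receptor gene Prlr was at the floor in both glands without section and 9.85, 9.87 and 9.20 in contralateral glands, at least 5.11-fold higher (adjusted p = 0.967 in limma). Its other probe sets gave -0.92, -0.05 and -1.71, so they disagree.

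Salivary-type genes gave 3 higher and 2 lower of 5 measured. Klk1, a tissue kallikrein whose near-identical relatives the probe set may also detect, had 7.98, 8.92 and 7.29 against 9.58 and 10.55. Its difference was -2.00 ± 0.80, and another probe set gave -0.03. Smr3b, a proline-rich relative of Smr3a, had 11.02, 8.56 and 10.71 against 12.16 and 12.43, and 7.51 to 10.74 in denervated glands. Both glands without section were the highest of all 10 for this gene. Egf, the epidermal growth factor gene, overlapped, with a difference of -0.23 ± 0.59 that was 0.10 after median centring.

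Receptors that receive the nerve's signals were mostly dim. Of 22 measured receptor and neuropeptide genes 9 were higher and 13 lower. Their median of -0.49 ran from -0.73 without the unoperated gland to -0.06 without sham. At their brightest probe sets 0 were at an unadjusted p under 0.05 by limma, where 1.08% of all genes were higher and 2.87% lower. Chrm3, the muscarinic receptor of secretory cells, had 9.88, 9.84 and 9.53 against 7.29 and 8.43, a difference of 1.89 ± 0.82, while a brighter probe set of the gene gave 0.11 ± 0.34. Chrm1 and Chrm2 differed by 0.87 ± 0.75 and 0.16 ± 0.84, both with overlap, and the latter was -0.15 without the unoperated gland. Vipr1, a receptor for vasoactive intestinal peptide, had 9.98, 9.12 and 7.29 against 10.25 and 10.37, a difference of -1.52 ± 0.83. The adrenergic receptors Adra1a and Adra2a differed by -0.77 ± 0.98 and -1.19 ± 0.69, and 2 further Adra2a probe sets gave -0.34 and 0.79. Among transmitter genes, Npy differed by -1.31 ± 1.03 and Tac1, the substance P precursor, by 1.48 ± 0.86, which was 0.28 without sham.

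Ion and water transport genes split evenly, 13 higher and 14 lower of 27, with a median of -0.01. Aqp5, the apical water channel of acinar cells, had 12.61, 13.90 and 13.35 against 14.21 and 12.75. Its difference of -0.19 ± 0.49 turned to 0.14 after median centring and lay between -0.92 and 0.53 when single glands were left out. Scnn1a, a subunit of the epithelial sodium channel, had 9.86, 9.70 and 9.60 in contralateral glands against 7.29 and 7.60, and no more than 9.09 in denervated glands. Its difference was 2.27 ± 0.74 (adjusted p = 0.967 in limma). Atp2b4, a calcium pump of the plasma membrane, differed by -2.78 ± 0.93, and the reticular pump Atp2a2 by 1.93 ± 0.74 at 1 probe set and by -1.28 to 0.82 at others.

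Mitochondrial genes leaned higher. Of 33 measured genes of oxidative phosphorylation 24 were higher, with a median of 0.14 that ran from 0.03 after quantile normalization to 0.47 after median centring. The medians over all probe sets under those scalings were -0.01 and 0.18. Without overlap 7 were higher and 2 lower, where 7.13% and 14.7% of all genes, and 10.1% and 8.75% of the bright ones, were so. Gland means were close, 13.01, 12.98 and 12.99 against 12.80 in unoperated and 12.98 in sham, so the sham gland lay level with the contralateral glands. Uqcrfs1, the iron-sulfur subunit of complex III, had 13.41, 13.48 and 13.28 against 12.86 and 12.67, a difference of 0.63 ± 0.28, and 0.18 and 0.23 at other probe sets. Cyc1, of the same complex, differed by 1.13 ± 0.37, or 0.44 without the unoperated gland. Cox8a and Ndufv2, of complexes IV and I, differed by 0.62 ± 0.32 and 0.59 ± 0.39.

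Muscle and matrix genes leaned lower. Of 15 measured skeletal muscle genes 4 were higher and 11 lower, with a median of -0.64, 3 lower at an unadjusted p under 0.05 (2.87% of all genes) and 6 lower without overlap (14.7% of all genes). The gland means were 9.72, 9.11 and 8.92 in contralateral glands, 9.46 in unoperated and 10.50 in sham, and the median was -0.28 without sham and -1.02 without unoperated. Atp2a1, the calcium pump of fast muscle fibres, had 7.76, 7.51 and 8.30 against 10.21 and 10.52. Tnnt3, fast troponin T, differed by -2.68 ± 1.01 without overlap, and Myh1, a fast myosin heavy chain, 8.19, 9.26 and 10.09 against 10.53 and 12.17. The acetylcholine receptor subunit Chrna1 differed by -1.21 ± 0.76, with overlap. The part of muscle tissue in the other results was not tested. Of 44 measured extracellular matrix and fibroblast genes 14 were higher and 30 lower, where 59.2% of all genes were lower. Their median of -0.34 was -0.17 after quantile normalization and -0.03 after median centring. The medians over all probe sets under those scalings were -0.01 and 0.18. The list median was -0.76 without unoperated and -0.18 without sham. At an unadjusted p under 0.05 by limma 1 was higher and 0 lower, where 1.08% and 2.87% of all genes were. Without overlap 7 were higher and 10 lower, where 7.13% and 14.7% of all genes were. The member with the smallest p, Igf1, was among the higher ones, at 2.08 ± 0.49, and is described with the single genes. The matrix protease Mmp2 had 7.86, 7.29 and 7.29 against 9.91 and 10.45, a difference of -2.70 ± 0.88 that was -0.45 ± 0.62 at another probe set. Dcn, the collagen-binding decorin, and Pdgfra, a growth factor receptor of fibroblasts, differed by -1.22 ± 0.54 and -1.41 ± 0.71. Further Dcn probe sets gave -0.87 to 0.14, and another of Pdgfra gave -0.23. The probe sets brightest in these glands gave -0.45 for Mmp2, 0.14 for Dcn and -0.23 for Pdgfra.

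Immune markers gave no uniform picture. Of 8 measured MHC class II genes, which present antigen, 7 were lower with a median of -0.35. Without overlap 1 was lower, near the 14.7% of all genes, while the gland means, 11.60, 11.06 and 11.05 against 11.60 and 11.61, put contralateral 1 level with both others. RT1-Db1 differed by -1.92 ± 0.99, and by -0.80 ± 0.49 at a brighter probe set. RT1-Bb differed by -1.34 ± 0.70, and by -0.53 ± 0.51 and -1.34 ± 0.89 at other probe sets, both with overlap. RT1-Ba differed by -1.08 ± 0.66 with 0.24 and 0.15 at other probe sets, and RT1-DMa by 1.19 ± 0.83 with -0.59. Of 16 markers of T and natural killer cells 11 were lower (median -0.36). Of 17 macrophage and monocyte markers 11 were higher; their median, 0.18, was -0.03 without the unoperated gland. Cd247, a signalling chain of the T cell receptor, was at the floor in all 3 contralateral glands, 8.62 in unoperated and 9.67 in sham, at least 3.62-fold lower, and between 8.39 and 9.12 in denervated glands.

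Clock genes, which follow the time of day, and immediate early genes, which follow stimulation and handling, were listed because the times of tissue collection are not in the labels. Of 10 measured clock genes 8 were lower, with a median of -0.27, and 4 were lower without overlap (14.7% of all genes). The median was -0.95 without sham and 0.04 after median centring, which gave 0.18 over all probe sets. Nr1d1, the repressor REV-ERB alpha, had 11.38, 10.60 and 9.72 against 13.28 and 11.78, a difference of -1.96 ± 0.56 (adjusted p = 0.967 in limma). Another Nr1d1 probe set gave -1.28 ± 1.2 with overlap, at 7.41, 10.19 and 9.67 against 12.87 in unoperated and 7.87 in sham. Sham thus lay below contralateral 2 and contralateral 3 there. Hlf, a clock output factor, had 8.58, 8.35 and 8.30 against 10.70 and 10.01, but -0.18 ± 0.97 at another probe set. The output factor Dbp ran from 7.29 in sham to 12.81 in unoperated, with the contralateral glands between at 7.86, 10.85 and 11.11; it was picked after its values were seen. Per2, a core repressor, had 9.96, 7.29 and 11.17 against 7.29 and 7.64, a difference of 2.01 ± 1.08, and the kinase gene Csnk1d differed by -0.65 ± 0.40. Their part in the other differences was not tested. Of 22 measured immediate early genes 7 were higher and 15 lower, with a median of -0.31. That median was 0.02 after median centring, which gave 0.18 over all probe sets. Ier3, an early stress response gene, had 9.88, 10.19 and 9.96 against 11.90 and 11.25, a difference of -1.57 ± 0.54, and -1.42 ± 0.51 at its other probe set. The AP-1 members Fosl2 and Junb differed by -2.31 ± 1.06 and -1.14 ± 0.52, and the nuclear receptor Nr4a1 by 1.06 ± 0.58. Other probe sets gave -0.95 ± 0.95 for Fosl2, -0.46 ± 0.73 for Junb and 0.64 ± 0.52 for Nr4a1, all with overlap.

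**Figure D4:**
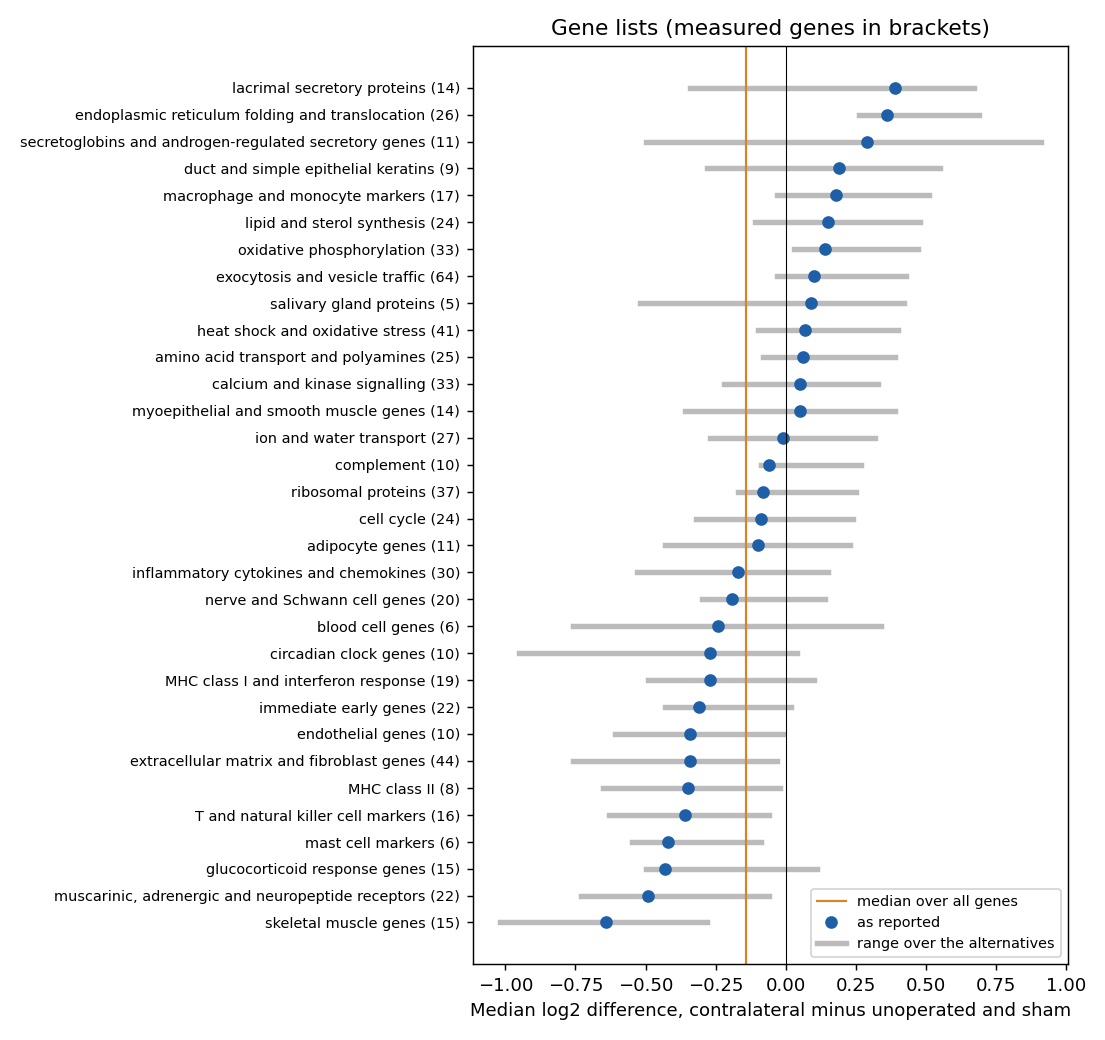
Median log2 difference of the gene lists with at least 5 measured genes (number in brackets), contralateral minus unoperated and sham. Circles are the values as reported, grey bars the range over the alternatives, and the orange line the median over all genes, -0.14. The bar of folding and translocation genes runs from 0.26 to 0.69, and that of skeletal muscle genes from -1.02 to -0.28. The orange line holds for the values as reported. After median centring, 1 of the alternatives, the median over all probe sets was 0.18.

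Single genes with the smallest p-values are described next; none passed after adjustment in limma, and most were dim. Oma1, a stress-activated protease of the inner mitochondrial membrane, had log2 intensities of 10.80, 10.71 and 10.92 in contralateral glands, 7.29 in unoperated and 8.46 in sham. Its difference was 2.94 ± 0.58 (adjusted p = 0.695 in limma), and all 5 denervated glands, from 9.93 to 11.18, were as high. Txnrd1, thioredoxin reductase, had 10.30, 9.82 and 9.53 against 7.32 and 7.29, a difference of 2.58 ± 0.60, but -0.26 ± 0.54 at another probe set. Igf1, the insulin-like growth factor gene, had 10.95, 10.29 and 10.80 against 8.73 and 8.47, a difference of 2.08 ± 0.49 (adjusted p = 0.775 in limma), with 1.07 ± 1.06 and 0.31 ± 0.81 at its other probe sets. For all 3 genes the 8 contralateral and denervated glands lay above the unoperated and sham glands.

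The other genes among the 12 smallest p-values on the higher side differed by 1.66 to 2.96, or by a bound. Hist4h4, a histone H4 gene with near-identical copies, had 10.73, 10.66 and 11.12 against 8.12 and 7.63. The receptor tyrosine kinase gene Ephb1 had 10.23, 10.09 and 10.05 against 8.01 and 7.86, a narrow spread on either side. Dyrk1a, a protein kinase gene, was at the floor in both glands without section and at least 5.98-fold higher in contralateral glands, yet differed by 0.03 ± 0.39 at another probe set. Cyp2j3, a cytochrome P450 of fatty acid epoxidation, was at least 6.27-fold higher on the same terms. Ndufb8, a complex I subunit, had 12.64, 13.17 and 13.10 against 12.39 in unoperated and 8.17 in sham. Its 2.69 ± 0.82 thus rested on the sham gland and was 0.58 without it. Other Ndufb8 probe sets gave 0.60 ± 0.90 and 0.37 ± 0.35, with sham at 11.10 and 12.94 and unoperated at 10.03 and 13.70. The others were Arl11, a small GTPase gene (2.41 ± 0.70), the splicing factor Sart1 (2.20 ± 0.64, and 0.37 at another probe set), Pdcd2 (1.66 ± 0.50), and the calpain inhibitor Cast (2.09 ± 0.66, with -0.26 to 1.23 at other probe sets).

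On the lower side, Cnrip1, which binds cannabinoid receptor 1, was at the floor in all 3 contralateral glands, 9.51 in unoperated and 11.05 in sham. It was at least 7.98-fold lower (adjusted p = 0.775 in limma), and denervated glands held 8.91 to 9.86. Pkn2, a protein kinase gene, had 7.58, 7.29 and 7.29 against 9.90 and 9.97, and denervated glands 8.42 to 9.74. Gne, the first enzyme of sialic acid synthesis, had 10.55, 11.88 and 11.65 against 12.93 and 12.92, a difference of -1.57 ± 0.44. Adap1 had 9.74, 10.25 and 10.50 against 11.62 and 12.12, a difference of -1.71 ± 0.46, and -0.12 ± 1.10 at another probe set. Acvr2a, an activin receptor gene, had 7.43, 7.29 and 7.59 against 10.42 and 10.17, a difference of -2.86 ± 0.84 and -0.67 ± 0.86 at another probe set. Zswim8 (-2.68 ± 0.77), Ggt5, a glutathione and leukotriene hydrolase (-2.82 ± 0.83), and the transcription factor Twist2 (-2.99 ± 0.91) each had 1 or 2 contralateral glands at the floor. The remaining ones, Rab12, Lgals3bp, Nr1d1 and Atp2a1, are described above.

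**Figure D5:**
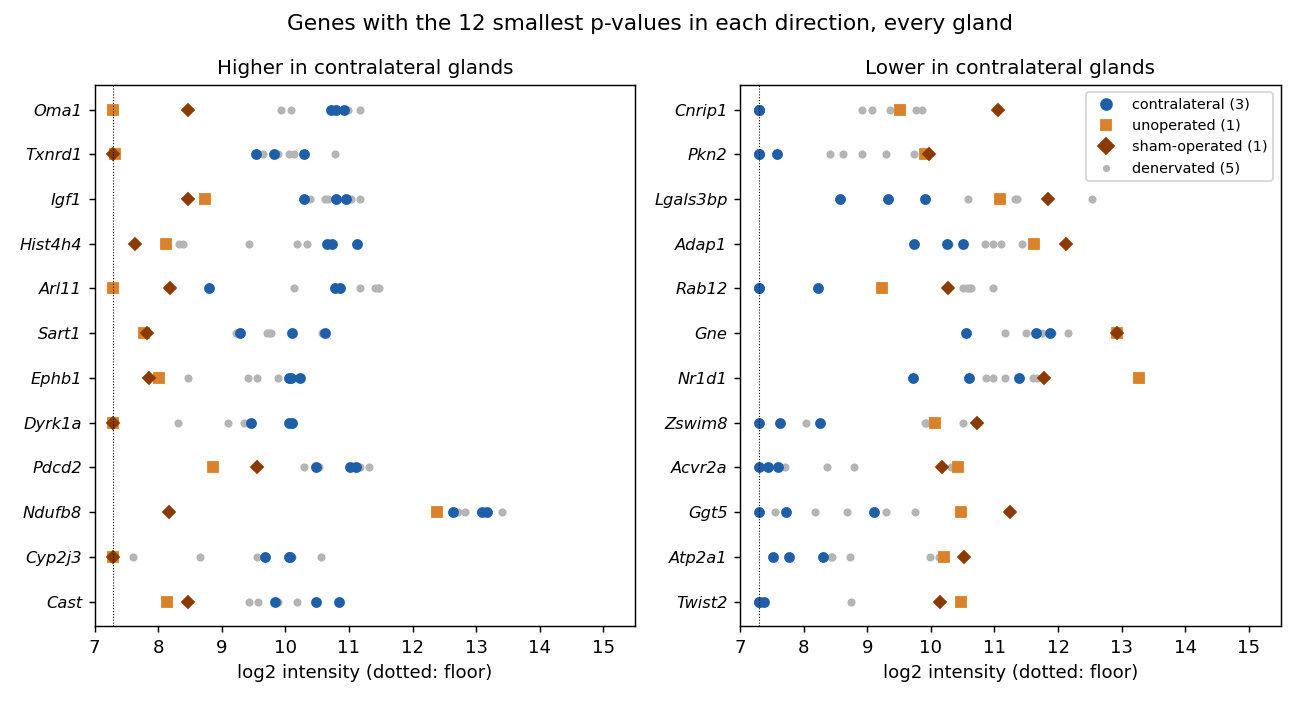
Log2 intensity in every gland of the genes with the 12 smallest p-values in each direction. Blue circles are contralateral glands, the orange square unoperated, the brown diamond sham and grey dots denervated glands; the dotted line is the floor, 7.29. The sides do not overlap for these 24 genes, which were picked for their difference, and most values lie below 12.

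Denervated glands were used to describe which side lay apart at single probe sets. A random order of the glands also gives such patterns for a small share of probe sets. That share was not computed here, so the counts below are descriptions and are not read as an excess. The genes named for these patterns were picked for their gaps. Contralateral glands lay above all 7 other glands for 54 probe sets (0.883%) and below all 7 for 56 (0.915%). Besides Hist4h4 and Scnn1a, the widest gaps above were those of Prkd3, a protein kinase D gene (9.52, 10.01 and 10.03 against at most 8.61), Shank1, a synaptic scaffold gene (10.82 to 11.27 against at most 10.40), Uqcc2, an assembly factor of complex III (11.06 to 11.49 against at most 10.64, and a difference of -0.08 at another probe set), and Slc7a5, a large neutral amino acid transporter. Slc7a5 was bright, with 15.55, 15.05 and 15.18 in contralateral glands, 13.84 in unoperated, 14.74 in sham and 11.21 to 14.15 in denervated glands. The widest gaps below, besides those of Cnrip1, Cd247, Rab12, Pkn2 and Lgals3bp, included Nbl1, an antagonist of bone morphogenetic proteins, with 8.80, 9.06 and 7.29 against 10.21 and 10.18.

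The 2 glands without section lay above all 8 others for 324 probe sets (5.3%) and below all 8 for 87 (1.42%). That imbalance turned with the scaling, to 214 and 127 after quantile normalization and 131 and 226 after median centring. Among those above, Atn1 had 10.60 and 10.61 against at most 9.34. Another Atn1 probe set gave -1.92 ± 1.07, with contralateral 1 at 9.93 above unoperated at 9.30. Agtr1b, an angiotensin II receptor gene, had 10.80 and 10.55 against at most 9.37. Its other probe sets gave -2.08 ± 0.87 and -0.81 ± 1.03, the latter with contralateral 1 at 8.67 above unoperated at 7.70. Selenop, which carries selenium in plasma, had 9.87 and 9.88 against at most 8.86, with -0.35 ± 0.39 at another probe set. Fgb, a fibrinogen chain gene, had 10.37 and 10.36 against at most 9.42. The olfactory receptor gene Or10al6 had 10.69 and 10.75, but differed by 0.05 ± 0.85 at another probe set. Among those below, besides Oma1, Txnrd1, Igf1 and Sart1, Il6r, the interleukin 6 receptor gene, had 7.47 and 7.48 against at least 9.17 in the 8 others. Plaat3, a phospholipase gene of fat tissue, had 7.44 and 7.29 against at least 8.86, and a difference of -0.45 at another probe set. The denervated glands of these genes were set against the same 2 glands, so both sets of values share them.

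Adjusted calls appeared under a pair of alternatives. Without the filter, 7 of 8740 probe sets passed in limma, all lower in contralateral glands, and they are named here after their values were seen. The elastase gene Cela1 had 10.20 in unoperated and 9.98 in sham, 7.75 in contralateral 1 and the floor in contralateral 2 and 3 (adjusted p = 0.00512 in limma). The calcium pump gene Atp2b1 had 10.16 and 9.89, against 7.44 and 2 glands at the floor. A2m, the protease inhibitor alpha-2-macroglobulin, was at least 5.53-fold lower at this probe set (adjusted p = 0.00512 in limma), with 9.54 and 9.97 in the glands without section and all 8 others at the floor. Prss2, Bcl2l11 and Ugt2b15 were at least 2.33-fold, 2.81-fold and 2.47-fold lower, and Nalcn had 8.78 and 9.35 against 7.29 to 7.45. All 7 had been removed by the filter, and the floor sets equal values in up to 8 glands here. Without the unoperated gland, 1 probe set passed, the Ndufb8 probe set above (adjusted p = 0.000907 in limma), which then rests on sham alone.

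RNA quality was compared by the log2 ratio of 3′ to 5′ control probe sets, which grows as RNA degrades. The beta-actin ratio was 0.91, 1.14 and 0.73 in contralateral glands and 0.65 and 0.61 in the glands without section, a difference of 0.30 (exact permutation test, two-sided p = 0.2, adjusted 0.6 over 3 ratios). All contralateral glands were higher, though 3 against 2 glands cannot give a p below 0.1. The GAPDH ratio differed by 0.13 (exact p = 0.8, adjusted 0.8) and the hexokinase ratio by 0.91 (exact p = 0.5, adjusted 0.75), both with overlap. The part of RNA quality in the differences above was not tested.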

How the data were processed

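RNA of 10 rat lacrimal glands was measured on Affymetrix arrays, 1 per gland. The authors deposited probe set intensities on a linear scale, already scaled: array means with 2% trimmed at each end ran from 2505.0 to 2506.8. The software is not given in the sources used here.

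That scaling was kept. Values under 156.2, their 20th percentile, were raised to it before log2, so differences at the floor understate a change. Of 8740 probe sets other than the 59 controls, 6118 whose mean exceeded the 30th percentile were tested. Limma 3.58.1 (R 4.3.3) fitted contralateral (3), unoperated with sham (2) and denervated (5) glands as 3 classes, by eBayes with trend, two-sided, adjusted over all tested probe sets (Benjamini-Hochberg), with 7 residual degrees of freedom. Precision is limited by how few arrays there are. The fit was tested on simulated data.

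Symbols came from the platform annotation, updated through a RefSeq GRCr8 table: 7006 probe sets had 1 symbol (6985 matched), 308 several and 1426 were not listed. The 33 lists use each gene's brightest probe set, as do the folding genes and Dbp where described; other named genes use the probe set with the smallest p. Named were the 12 smallest p in each direction, up to 4 members of each described list, up to 6 genes by gap in each pattern against all other glands, and 8 fixed genes. Members and lists were chosen with earlier results of these data known. Alternatives were other scalings, floors and filters, no trend, array weights, the 5 glands alone, 1 probe set per gene, sets of arrays as blocks, and leaving out each gland. Figures used matplotlib 3.10.9.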

Additional observations from a re-analysis of the deposited data

Results flagged for a closer look

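In the denervated glands, which serve here for the spread, 1 gland lay far from the other 4 in 4 of the 56 groups of values examined; chance gives about 1 in 20. Denervated 1 had a log2 intensity of 10.13 for Arl11, where the others had 11.17 to 11.48, and 8.04 for Zswim8, where the others had 9.91 to 10.51. Its mean over macrophage and monocyte markers was 11.24, against 11.90 to 12.15. Denervated 2 had 10.98 for Rab12, against 10.50 to 10.63.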

How the results depend on the processing

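The adjusted count stayed at 0 in 20 of 22 alternatives; it was 7 without a filter, and ran from 0 to 1 when single glands were left out (1 without the unoperated gland). The unadjusted count was 299 (4.89% of those tested). It was 576 without a filter (6.59%), 499 with array weights (8.16%) and 515 with 2 sets of arrays as blocks (8.42%). With the filter at the 50th percentile it was 173 (3.96%), and with 1 probe set per gene 149 (4.11%), where 3621 were tested. The count ran from 210 (3.43%) to 425 (6.95%) when single contralateral or denervated glands were left out. The number of probe sets without overlap, 1348, was 791 with 1 probe set per gene and rose to 3420 at most when a gland was left out (2616 without contralateral 1, 3420 without unoperated, 3042 without sham), as fewer glands overlap less often by construction. Of 87 named gene values, those that changed sign were Rab3d (-0.04, quantile normalization), Egf (0.10, median centring) and Aqp5 (0.14 with median centring, 0.01 with array weights, and -0.92 to 0.53 leaving out glands), and, leaving out single glands, Chrm2 (-0.15 to 0.46), Lcn2 (-0.40 to 7.34) and Smr3a (-2.15 to 4.70). The causes were not tested. Some named genes have no value in some alternatives, because their probe set was not among those tested there. Examples are Twist2 after median centring, and Twist2, Prlr and Selenop with the floor at the 10th percentile. The sign changes and ranges of named genes cover only the alternatives with a value. No paired analysis was possible because the labels pair no unoperated or sham gland with a contralateral gland. Small numbers of arrays and signal near the floor limit dim probe sets most, whose median standard error was 0.91 against 0.43 for the brightest.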

Other observations

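Further gene groups are given by their median difference, where the median over all genes was -0.14. Ribosomal protein genes, 37 measured, had a median difference of -0.08 and gland means of 15.73, 15.36 and 15.44 in contralateral glands against 15.58 in unoperated and 15.60 in sham. Heat shock and oxidative stress genes, 41 measured, had a median of 0.07, with 25 higher. Amino acid transport and polyamine genes had 0.06, calcium and kinase signalling genes 0.05, cell cycle genes -0.09 and nerve and Schwann cell genes -0.19. Glucocorticoid response genes, of interest after surgery, had 10 of 15 lower and a median of -0.43, which was 0.11 without the unoperated gland. MHC class I and interferon response genes had 14 of 19 lower and a median of -0.27, which was 0.10 without the unoperated gland. It was 0.06 after median centring, which gave 0.18 over all probe sets. Endothelial genes had a median of -0.34 over 10 genes, mast cell markers -0.42 over 6, adipocyte genes -0.10 over 11, blood cell genes -0.24 over 6, duct and simple epithelial keratins 0.19 over 9 and myoepithelial and smooth muscle genes 0.05 over 14. Complement genes had -0.06 over 10, inflammatory cytokines and chemokines -0.17 over 30 and lipid and sterol synthesis genes 0.15 over 24. Of the B and plasma cell markers 1 gene was measured, with 0.33.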
